A study of Rattus norvegicus with 21 samples.

Results

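In a study of male SD rats (genotype WT), 125 of 30560 genes in the deposited table had at least 4-fold more normalized read counts in hippocampus than in cerebral cortex. They were chosen from the values themselves. The median over 10 hippocampus libraries, plus 1, had to be at least 4 times the median over 10 cortex libraries, plus 1, and the hippocampus median had to reach 100. 2 IDs were left out by the rule, of which 1 met both thresholds. The tissue difference of these genes is therefore a description and was not tested.

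The rats were 4 weeks old at the start and were acclimated for 2 weeks. Of 12 rats, 8 went through repeated hypobaric hypoxia (HH), the thin air of high altitude reproduced in a chamber, and 1 of them died. An exposure climbed to a simulated 28000 ft and stayed there for 5 min, and 6 exposures were given 3 days apart. Controls stayed in normal oxygen, and exposed rats were killed 24 h or 48 h after the last exposure. Cortex gave 4 control, 3 24 h and 3 48 h libraries, and hippocampus gave the same numbers. Each library came from bulk tissue, and the labels do not say which part of the cortex was taken. One more library is titled hippocampus at 24 h, but its tissue label says cortex, so it was kept out of every comparison.

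The hippocampus is the folded inner edge of the cerebral cortex, with the dentate gyrus and the CA fields as its neuron layers and fibre tracts along its surface, and it is needed for new memories of places and events. The neocortex has layered projection neurons of other types. RNA of a tissue piece therefore mixes neurons, glia, vessel cells and any neighbouring tissue in the sample, and in bulk RNA fewer cells of a type and less RNA per cell cannot be told apart. The table gives Ensembl rat IDs without gene names, and the reference table used here paired 0 of them with a symbol. The members are therefore given by number and level, their functions were not analysed here, and no marker gene of either tissue could be looked up to check the tissue labels.

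Hippocampus control 1 was shallow, with 4654096 reads assigned to genes, and the depth of the other libraries lay between 11214566 and 19304803. Several libraries stood apart before any exposure comparison. As a yardstick that uses no member, the 209 genes at least 4-fold higher in cortex were placed in each library between the 2 tissue medians, on the log2 scale, with cortex at 0 and hippocampus at 1. Hippocampus control 2 lay at 0.27 and hippocampus 24 h replicate 2 at 0.39, and the other hippocampus libraries lay between 0.88 and 1.24. Cortex control 3 lay at 0.55 and cortex 24 h replicate 3 at 0.17, and the other cortex libraries lay between -0.09 and 0.05. These 4 libraries and the shallow hippocampus control 1 are the 5 doubted libraries in what follows.

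The members spanned a wide range of abundance. Their hippocampus medians ran from 100.1 to 202058 normalized counts, with a midpoint of 339.9, and 38 of 125 reached 1000. The ratio of tissue medians had a midpoint of 5.36, with quartiles of 4.58 and 7.71. 50 members had a ratio under 5, close above the threshold, and 24 had a ratio of 10 or more. 16 members had a cortex median under 10, and 2 of these had a cortex median of 0. The members nearest to the threshold had ratios of 4.00, 4.00 and 4.02, and the genes just outside it 3.99, 3.99 and 3.99. The smallest hippocampus medians among members were 100.1, 103.3 and 104.3, and those just too low were 98.3, 97.9 and 95.9.

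**Figure D1:**
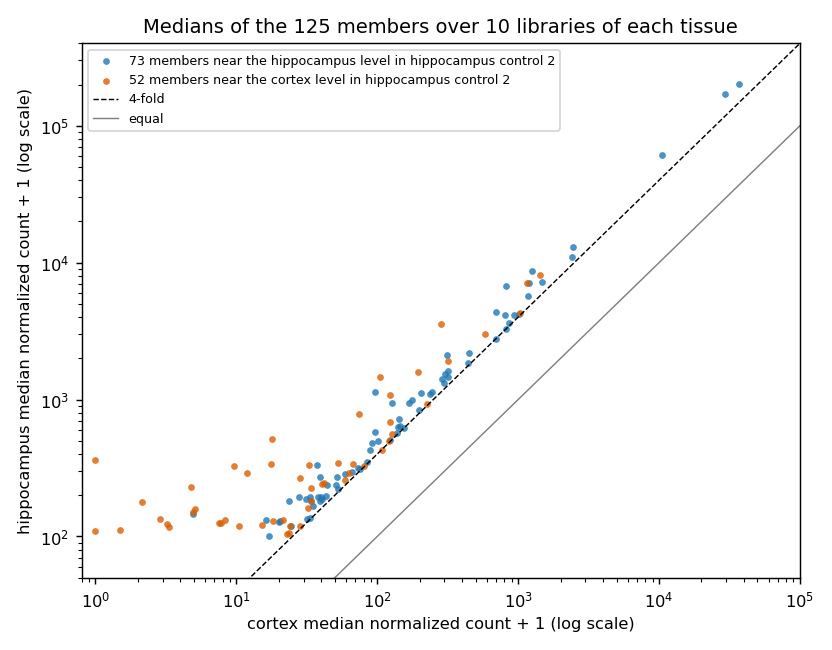
Each point is 1 of the 125 members, with its median normalized count plus 1 over 10 cortex libraries (x axis, log scale) and over 10 hippocampus libraries (y axis, log scale); the dashed line marks a 4-fold difference and the grey line equality. Most points lie just above the dashed line, and the members near the cortex level in hippocampus control 2 (orange) reach the highest ratios.

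3 members carried most of the RNA of the whole set. Together they made up 62.6% to 77.9% of the members' normalized counts in hippocampus libraries and 60.4% to 76.9% in cortex libraries. The most abundant of them had 352186, 186841, 197985 and 298925 in hippocampus controls 1 to 4. It had 131719, 132690 and 459878 in hippocampus 24 h replicates 2 to 4, and 206131, 395463 and 164162 in 48 h replicates 1 to 3. All hippocampus libraries were high, and the 24 h group held both the lowest and the highest of them. In cortex its values were 63044, 40979, 33337 and 40975 in controls 1 to 4. They were 17997, 127650 and 16958 in 24 h replicates 2 to 4, and 47611, 22074 and 17017 in 48 h replicates 1 to 3. Cortex 24 h replicate 3 was the highest cortex library and stayed just under the lowest hippocampus library. The next most abundant pair of members was also highest in that cortex library, at 91226 and 35207, and their next highest cortex values were 42987 and 18323, both in control 1.

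At the other end, the member with the highest ratio, 364.4, was at 0 in 6 of 10 cortex libraries and reached at most 4.16 in cortex. In hippocampus it had 271.9, 0, 510.9 and 144.4 in controls 1 to 4. It had 1353, 1828 and 174.7 in 24 h replicates 2 to 4, and 454.9, 230.5 and 2260 in 48 h replicates 1 to 3. So 1 hippocampus library, control 2, had no read for it, and the exposure groups overlapped widely. The member with the second highest ratio, 109.2, was also at 0 in 6 cortex libraries and in hippocampus control 2. Its other hippocampus values ran from 7.54 in 24 h replicate 2 to 1122 in control 1.

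In 39 of 125 members every hippocampus library lay above every cortex library, and in 86 the tissues overlapped in at least 1 library. The rule chose the members by this tissue difference, so these counts are a description. The same share over all genes is not given here. Hippocampus control 2 split the members into 2 sets. In it 73 members lay above 0.5 on the scale between the tissue medians, with a median position of 0.97, and 52 lay at or below 0.5, with a median of -0.12. The split was made on this library after its values were seen, so its separation there is no result. The first set was more abundant and closer to the threshold, with a midpoint of 623.1 normalized counts in hippocampus and a ratio of 4.92. The second set had 261.1 and a ratio of 7.58, and it held 22 of the 24 members with a ratio of 10 or more.

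**Figure D2:**
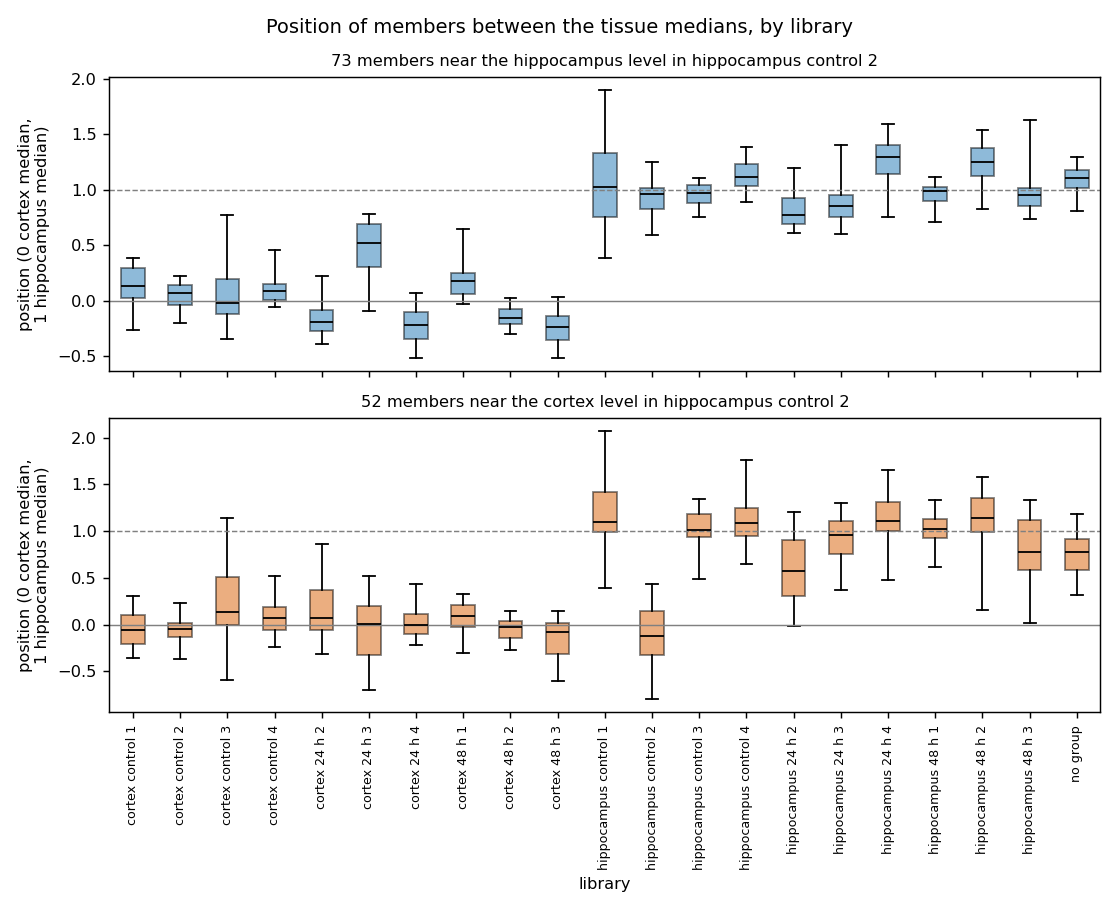
Position of members between the cortex median (0) and the hippocampus median (1), on the log2 scale, for each library on the x axis; boxes show quartiles, lines inside them medians, and whiskers the 5th and 95th percentiles. The upper panel holds the 73 members near the hippocampus level in hippocampus control 2 and the lower panel the other 52; cortex 24 h replicate 3 is raised in the upper panel only, with medians of 0.52 and 0.01.

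The other libraries, which the split did not use, also placed the sets differently. In cortex 24 h replicate 3, 39 of the 73 members of the first set lay nearer to the hippocampus level, against 4 of 52 of the second. In cortex control 3 the counts were 7 of 73 and 13 of 52. In hippocampus 24 h replicate 2 they were 71 of 73 and 30 of 52. In 6 cortex libraries, controls 1, 2 and 4, 24 h replicate 4 and 48 h replicates 2 and 3, at most 4 members of either set did so. Across the 10 cortex libraries, members of the first set varied together, with a median pairwise correlation of 0.59 (0.51 without cortex 24 h replicate 3). Within the second set the median was 0.16, and between the sets it was 0.07. The midpoint of the cortex medians was 126.2 normalized counts in the first set and 29.3 in the second. Whether this lower level weakened the correlations was not tested. The sets did not separate this way across the 9 hippocampus libraries other than control 2, where the medians were 0.43 within the first set, 0.18 within the second and 0.28 between them (0.73, 0.39 and 0.46 without hippocampus control 1). These correlations are over the same few libraries for every pair of members, and they are given as a description.

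Members also varied more between libraries of a group than genes in general. The median SD per gene on the log2 scale within cortex groups was 0.55 in controls, 0.94 at 24 h and 0.58 at 48 h for members, against 0.31, 0.29 and 0.20 for all genes with a mean of at least 10. In hippocampus the members had 0.97, 0.81 and 0.68, against 0.64, 0.30 and 0.29. The doubted libraries are included in these SDs, and SDs without them are not given here. Members were chosen by a large tissue difference, so a library between the tissues widens their spread. How much of the excess this made up was not tested. Over the hippocampus libraries other than control 2, the highest value plus 1 was a median of 3.84 times the lowest plus 1 in the first set and 10.2 times in the second. 36 of 125 members spanned at least 10-fold there, 9 of the first set and 27 of the second.

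The share of each library taken by all members rests mostly on the 3 most abundant of them. Of the doubted libraries, cortex 24 h replicate 3 stood far above its group in this share. Cortex control 3 and hippocampus controls 1 and 2 lay close to other controls of their tissue. In cortex controls it was 1.23%, 0.868%, 0.992% and 0.93% in replicates 1 to 4, with a mean of 1.00% ± 0.156 (SD, n = 4). In cortex at 24 h it was 0.533%, 2.08% and 0.472% in replicates 2 to 4, with a mean of 1.03% ± 0.91 (SD, n = 3). In cortex at 48 h it was 1.07%, 0.579% and 0.457% in replicates 1 to 3, with a mean of 0.701% ± 0.322 (SD, n = 3). So 4 of 6 exposed cortex libraries lay below every control, 1 lay within the control range and 1, 24 h replicate 3, lay far above it.

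In hippocampus controls the share was 4.17%, 4.00%, 4.44% and 6.24% in replicates 1 to 4, with a mean of 4.71% ± 1.04 (SD, n = 4). In hippocampus at 24 h it was 3.17%, 3.40% and 8.04% in replicates 2 to 4, with a mean of 4.87% ± 2.74 (SD, n = 3). In hippocampus at 48 h it was 4.64%, 8.08% and 4.06% in replicates 1 to 3, with a mean of 5.59% ± 2.17 (SD, n = 3). The ranges of all 3 groups overlapped. At 24 h replicates 2 and 3 lay below all controls and replicate 4 above them. At 48 h replicate 2 lay above all controls, and replicates 1 and 3 lay within their range.

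**Figure D3:**
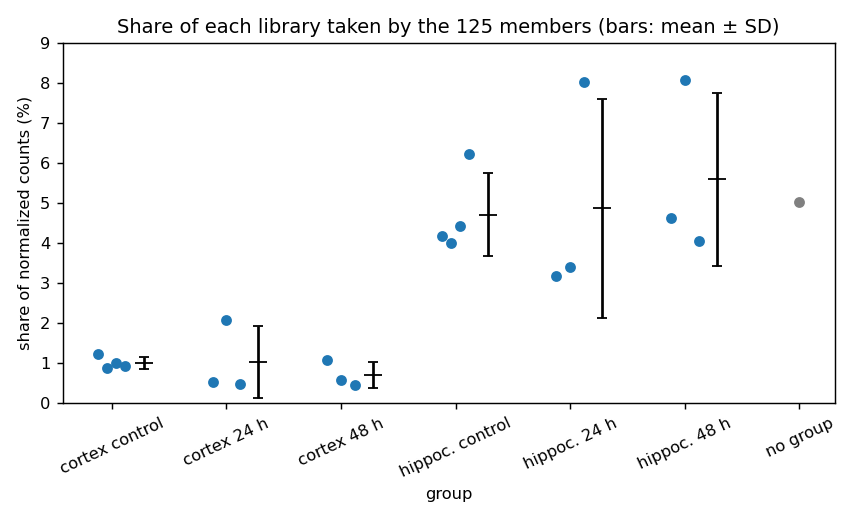
Share of normalized counts (y axis, percent) taken by the 125 members in each library (points), by group, with the mean ± SD beside the points of each group. Cortex libraries sit between 0.457% and 2.08% and hippocampus libraries between 3.17% and 8.08%; the grey point is the library without a group, at 5.02%.

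The study asked how each tissue differs 24 h and 48 h after repeated exposure. The rule pooled the exposure groups within a tissue and did not compare them, so these comparisons were tested. Exposed libraries entered the tissue medians beside the controls, so the choice was not free of exposure. High hippocampus or low cortex values in any group helped a gene to qualify. By control medians 95 members were at least 4-fold higher in hippocampus, and by 48 h medians 119. Directions of the members as a set are therefore descriptions. limma was fitted to log2(value + 1) for every gene whose mean in the fitted libraries reached 10, and p-values were adjusted over all these genes. All 125 members passed this filter in hippocampus and 115 in cortex, where the 10 others were too low to test. Fold changes on this scale understate changes of low genes. DESeq2 took in every gene with a read in the fitted libraries, so its shares of all genes include genes under the limma filter. A gene to which DESeq2 gave no adjusted p counted as not called.

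In cortex at 24 h, members were mostly a little lower than in controls, 77 of 115 lower and 38 higher, with a median log2 change of -0.12, against -0.021 for all 14783 genes tested. 0 members passed an adjusted p of 0.05 in limma, as did 0% of all genes, and edgeR called 0 members and 0 of 15344 genes. DESeq2 also called 0 members, beside 41 of 22389 genes (0.183%). At an unadjusted p under 0.05 there were 2 members (1 higher, 1 lower), that is 2 of 115, beside 7.96% of all genes. The median was raised by cortex 24 h replicate 3. Without it the median was -0.55 and 30 members had an unadjusted p under 0.05, 29 of them lower, that is 25.9% of the members tested beside 8.59% of all genes in the same fit, still with 0 called. With library weights 48 members did (41.7%, beside 18.8% of all genes), with 0 called. In the fit without cortex 24 h replicate 3, the first set had a median of -0.73, with 66 of 73 members lower. The second set had -0.04 in that fit, with 23 of 43 lower. Without 24 h replicate 4 or 2 the median of all members was 0.12 or 0.0026, and in edgeR it was 0.06, so the direction at 24 h depended on the libraries and on the tool.

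At 48 h in cortex, 90 of 115 members were lower than in controls and 25 higher, with a median log2 change of -0.41 (quartiles -0.66 and -0.05), against 0.0061 for all genes. The median stayed below 0 in all 20 alternatives, from -0.68 without 48 h replicate 1 to -0.18 without 48 h replicate 3. Of the first set 62 of 73 members were lower, with a median of -0.42, and of the second 28 of 42, with -0.32. 0 members passed the adjusted threshold in limma, as did 0% of all genes, and edgeR called 0 members and 0 of 15344 genes. DESeq2 called 0 members, beside 0.00893% of all genes. 1 member, lower at 48 h, had an unadjusted p under 0.05, beside 3.48% of all genes. Without the 5 doubted libraries 17 members did, 16 of them lower, which is 14.8% beside 7.41% of all genes in that fit, and the median was -0.36. With library weights 31 did (27%, beside 12.7%). The members share libraries and the first set moves together, so the number on one side of 0 is not a count of independent changes.

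Between 48 h and 24 h in cortex, 76 of 115 members were lower at 48 h, with a median of -0.21, against 0.024 for all genes. Without cortex 24 h replicate 3 the median turned to 0.21, with 64 of 73 members of the first set higher at 48 h. 0 members and 0% of all genes passed in limma, and edgeR called 0 members and 0 of 15344 genes. DESeq2 called 1 member, lower at 48 h, which is 0.8% beside 0.648% of all genes. limma with library weights called 5, all lower, which is 4.35% beside 9.03% of all genes, so neither share of members stood clear above that of all genes. 4 members (1 higher, 3 lower) had an unadjusted p under 0.05 in limma, beside 11.3% of all genes. Leaving out 24 h replicate 3 gave 11 such members (9.48%, beside 6.73% of all genes in that fit). With 48 h replicate 1 left out there were 6, beside 6.57% of all genes, with replicate 2 left out 2, beside 6.74%, and with replicate 3 left out 1, beside 9.39%.

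In hippocampus at 24 h the members were spread to both sides of the controls, 64 of 125 higher and 61 lower. The median log2 change was 0.046 (quartiles -0.42 and 0.51), against 0.035 for all 15028 genes. 0 members and 0% of all genes passed the adjusted threshold in limma, and edgeR called 0 members and 0 of 15290 genes. DESeq2 called 0 members, beside 0.00907% of all genes. 3 members (2 higher, 1 lower) had an unadjusted p under 0.05, beside 2.13% of all genes. The second set leaned higher, with a median of 0.30 and 31 of 52 higher, but without hippocampus control 2 its median was -0.70 and 36 of 52 were lower. That library defined the set by its low values, so the set's median against controls that include it is not evidence of a change. The first set had a median of -0.05 with control 2 and -0.13 without it. Without 24 h replicate 4 the median of all members was -0.43 and 11 had an unadjusted p under 0.05 (8.8%, beside 3.53% of all genes). Without control 2 there were 10 (8%, beside 3.01%), and with library weights 23 (18.4%, beside 10.8%).

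At 48 h in hippocampus, 85 of 125 members were higher than in controls and 40 lower, with a median of 0.20, against 0.016 for all genes. Without control 2 the median was -0.10, with 56 higher, and without 48 h replicate 2 it was -0.07. The second set again moved most, from 0.61 to -0.36 without control 2, and the first set from 0.10 to 0.012. 0 members and 0% of all genes passed in limma, and edgeR called 0 members and 0 of 15290 genes. DESeq2 called 0 members, beside 0.0136% of all genes. 1 member, higher at 48 h, had an unadjusted p under 0.05 in limma, beside 1.6% of all genes. There were 6 without 48 h replicate 1, beside 1.97% of all genes. With the replicate number as a block there were 8 (6.4%, beside 4.46% of all genes), with 0 called.

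Between 48 h and 24 h in hippocampus, 92 of 125 members were higher at 48 h, with a median of 0.21, against 0.0047 for all genes. Without 24 h replicate 2, which lay between the tissues, the median was -0.06 and 50 were higher. 0 members and 0% of all genes passed in limma, and edgeR called 0 members and 0 of 15290 genes. DESeq2 called 0 members, beside 0.00454% of all genes. 0 members had an unadjusted p under 0.05 in limma, beside 0.166% of all genes, and 8 had one without 24 h replicate 4, beside 1.58% of all genes. With library weights 27 did (21.6%, beside 11.4%). With the position of each library on the scale of genes higher in cortex as a covariate, the median was -0.12 here and -0.26 for 48 h against control, with 0 members called in either.

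**Figure D4:**
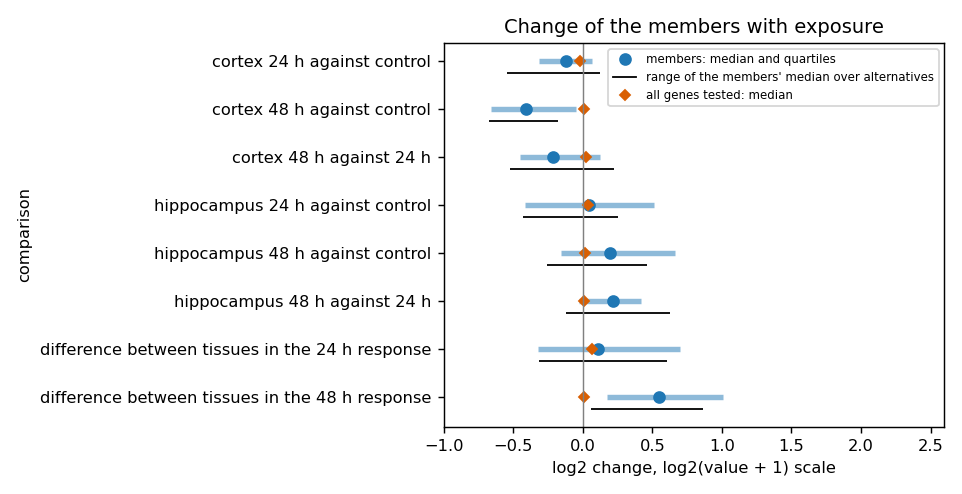
Log2 change (x axis, log2(value + 1) scale) for each of 8 comparisons (y axis): blue points and bars give the median and quartiles over the members tested, orange diamonds the median over all genes tested, and thin black lines the range of the members' median over the alternatives. The black line stays on one side of 0 for cortex at 48 h against control and for the tissue difference in the 48 h response, and crosses 0 in the other 6. These directions are descriptions, since the rule used the same libraries. The tissue differences include the 10 members too low to test in cortex.

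The distance between the tissues was compared between exposure groups as an interaction term, fitted over all 20 libraries. All 125 members entered this fit, but 10 of them passed its filter only through their hippocampus level and were too low in cortex to show a change there. Of the 115 members that also passed the filter in cortex, 95 had a positive term for the 48 h response, that is, a hippocampus change above the cortex change, with a median of 0.55, against 0.011 for all 15017 genes. With the 10 others it was 103 of 125, with the same median. The median over 125, with those 10 included, stayed above 0 in all 26 alternatives. It ran from 0.06 with tissue position as a covariate to 0.87 without cortex 48 h replicate 1. The alternatives were not summarized for the 115 alone. The rule used the tissue difference over these same libraries. The direction of this term over the members is therefore a description. Without hippocampus control 2 the median over 125 was 0.29, with 0.45 in the first set and -0.12 in the second. 0 members and 0% of all genes passed in limma, and 1 member had an unadjusted p under 0.05 beside 1.32% of all genes. edgeR called 0 members and 0 of 15934 genes, and DESeq2 called 0 members and 0 of 23303 genes. For the 24 h response, 64 of these 115 members were positive (68 of 125), with a median of 0.11 in both counts, against 0.066 for all genes. The median over 125 ran from -0.31 without hippocampus 24 h replicate 4 to 0.60 without the 5 doubted libraries, and it was -0.16 in edgeR and DESeq2 and -0.21 without hippocampus control 2. Again 0 members and 0% of all genes passed in limma, and 2 members (1 higher, 1 lower) had an unadjusted p under 0.05 beside 3.48%. edgeR again called 0 members and 0 of 15934 genes, and DESeq2 0 members and 0 of 23303 genes.

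By group medians, 95 of 125 members were at least 4-fold higher in hippocampus in controls, 98 at 24 h and 119 at 48 h, and 71 were so in all 3 groups. The midpoint of the ratio was 5.00 in controls, 5.74 at 24 h and 6.90 at 48 h. At least 2-fold higher were 125, 119 and 125. Since the rule used these tissue differences, the counts are descriptions. 1 member, ENSRNOG00000026091, had the opposite order at 24 h, with medians of 12.6 in hippocampus and 16.1 in cortex.

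3 IDs are named. In each direction the member with the smallest limma p of a comparison was taken, for the 2 comparisons where that p was smallest. Further members of the same comparison were passed over. The IDs were picked by p-value, so their separation is no support. All 3 missed the threshold in limma with equal library weights, and 2 of them were among the 5 called with library weights in cortex between 48 h and 24 h. The first, ENSRNOG00000016890, gave the smallest p among members and was the 1 member that DESeq2 called. In cortex it had 193.1, 299.9, 277.2 and 367.1 in controls 1 to 4. It had 494.3, 683.9 and 341.9 in 24 h replicates 2 to 4, and 201.1, 157.3 and 164.6 in 48 h replicates 1 to 3. All 3 libraries at 48 h lay below all 3 at 24 h, and 2 of 3 at 24 h lay above all controls. From 24 h to 48 h it changed by -1.49 on the log2 scale (SE 0.28, 95% interval -2.12 to -0.85, limma adjusted p = 0.36). The adjusted p was 0.323 in edgeR and 0.00114 in DESeq2, and 0.00944 in limma with library weights, and the log2 change ran from -1.74 to -1.24 over the alternatives. At 24 h against control it was 0.81 (SE 0.27, limma adjusted p = 0.603). In hippocampus ENSRNOG00000016890 ran from 617.6 to 3957, with all 3 groups overlapping.

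ENSRNOG00000022337 had 207.1, 249, 238.8 and 288.8 in hippocampus controls 1 to 4. It had 543.2, 962.9 and 372.4 in 24 h replicates 2 to 4, and 224.1, 386.6 and 735.7 in 48 h replicates 1 to 3. All 3 libraries at 24 h lay above all 4 controls, and those at 48 h overlapped both groups. The log2 change at 24 h was 1.24 (SE 0.42, 95% interval 0.31 to 2.18, limma adjusted p = 0.851, DESeq2 adjusted p = 0.727). In cortex ENSRNOG00000022337 had 35.3, 23, 47.6 and 36.9 in controls 1 to 4, 47.6, 40.6 and 41.9 in 24 h replicates 2 to 4, and 33.3, 15 and 16.9 in 48 h replicates 1 to 3. All 3 values at 48 h lay below all 3 at 24 h, and both groups overlapped the controls. The log2 change between them was -1.05 (SE 0.36, limma adjusted p = 0.39), and with library weights it was -1.37 (limma adjusted p = 0.0168).

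ENSRNOG00000026091 had 258.9, 219.1, 145.3 and 852 in hippocampus controls 1 to 4. It had 8.62, 12.6 and 174.7 in 24 h replicates 2 to 4, and 68.1, 115.7 and 45.8 in 48 h replicates 1 to 3. 2 of 3 libraries at 24 h lay below all controls, and the third was within their range, while all 3 at 48 h lay below all controls. The log2 change at 24 h was -3.36 (SE 0.96, 95% interval -5.48 to -1.23, limma adjusted p = 0.851, DESeq2 adjusted p = 0.952). At 48 h it was -2.01 (SE 0.96, limma adjusted p = 0.928). In cortex ENSRNOG00000026091 ran from 4.41 to 56.9.

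**Figure D5:**
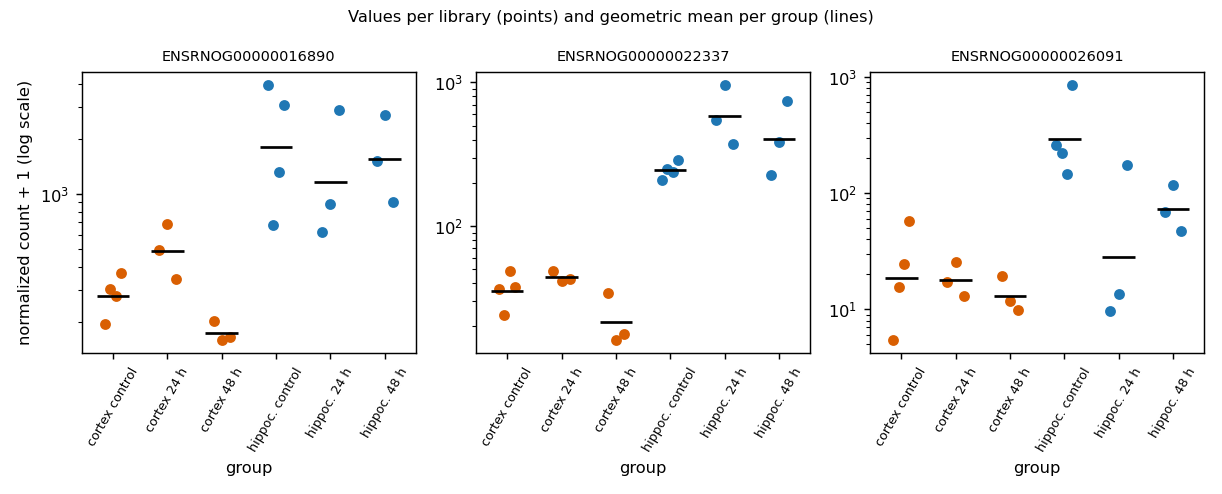
Normalized counts plus 1 (y axis, log scale, different in each panel) of the 3 named IDs in every library (points) of the 6 groups, with lines at geometric means. The cortex values of the first at 48 h lie below all of those at 24 h, and the third is low in 2 of 3 hippocampus libraries at 24 h, at 8.62 and 12.6.

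Few members could have shown a small change to be absent. For 24 h or 48 h against control, the median 95% interval of a member's log2 change reached 1.11 to either side in cortex and 1.32 in hippocampus, against 0.54 and 0.88 for all genes. In cortex the interval lay within a 2-fold change either way for 9 of 115 members at 24 h (7.83%) and 11 at 48 h (9.57%), against 66.4% and 67.2% of all genes. In hippocampus it did so for 15 of 125 (12%) and 13 (10.4%), against 35.9% and 37.3%. Lack of a call among the members thus does not show that they stayed the same.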

How the data were processed

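Libraries were prepared from TRIzol RNA of 50 mg of tissue, using a kit that keeps the strand of mRNA, as the labels' protocols state. The submitters' processing notes name fastp 0.20.0, HISAT2 2.1.0 and featureCounts 2.0.1. Build, annotation, strand setting and any count filter were not given in the sources used here. Deposited was 1 table by the authors, with a signal for each gene and library. Its values show read counts scaled by 1 factor per library. Divided by the smallest value above 0 in the same column, 100% of them came within 0.001 of whole numbers, and a median-of-ratios calculation on these reads returned the same factors. Each of the 21 columns was matched to 1 sample by its name, with 0 columns left over.

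The members, lists, tests and alternatives were chosen with earlier results of these data known. Groups follow titles and tissue labels. The labels give 4 control rats, 4 at 24 h and 3 at 48 h, and do not state which libraries of the 2 tissues share a rat, so the interaction treats all as separate. Each library counted as 1 replicate. Every pair of libraries within a group (24 pairs) differed by more than sampling noise, with a chi-square of 15.6 to 265.2 per degree of freedom. Separate libraries of the same rat could also differ so, and this check does not show that libraries of a group came from different rats. Exposure was tested with limma 3.58.1 in R 4.3.3 (two-sided, moderated with a trend on mean level, Benjamini-Hochberg) on log2(value + 1), within each tissue, and the interaction over 20 libraries. edgeR 4.0.16 and DESeq2 1.42.0 on the recovered reads, other pseudocounts, filters and scalings, library weights, a covariate, a replicate block and left-out libraries were alternatives. The procedure was also run on simulated counts with planted changes. The outcome is not given here, so the run does not tell how large a change could have been called. Of 47357 rat genes in the reference, 0 carried an Ensembl ID, so the prepared gene lists, cell type markers and sequences were not used here. Only IDs with the smallest limma p of a comparison in either direction are printed, at most 2 higher and 2 lower, each from a different comparison within its direction.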

Additional observations from a re-analysis of the deposited data

Results flagged for a closer look

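Of 20 checks of the 4 control libraries of a tissue for 1 far from the other 3, 4 stood out. In 2 of the 20, the positions of the sets in hippocampus controls, the choice of the sets fixed the outcome, which leaves 3 of 18. About 1 such check in 20 stands out by chance, the measures are not independent, and groups of 3 were not checked. Hippocampus control 1 had 4654100 reads in genes, to the nearest 100, where the other controls had 14298303 to 15322551. Cortex control 3 lay at 0.552 on the scale set by genes higher in cortex, where the other cortex controls lay between -0.086 and 0.012. In hippocampus control 2 the 52 members of the second set had a median position of -0.124, where the other hippocampus controls had 1.01 to 1.10, and the set was chosen on this library. ENSRNOG00000026091 had 852 in hippocampus control 4, where the other controls had 145.3 to 258.9.

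The library with conflicting tissue labels, used in no comparison, gave 5.02% of its normalized counts to the members, above the 0.868% to 1.23% of cortex controls. 115 of 125 members lay nearer to the hippocampus level in it, 73 of 73 of the first set and 42 of 52 of the second. 105 members were above all 10 cortex libraries, 70 of the first set and 35 of the second. 121 were within the range of the hippocampus libraries, 69 of the first set and 52 of the second. That range includes hippocampus control 2, which by the choice of the sets was low for the second set, so lying within it says little there. The same shares over all genes are not given here. On the scale of genes higher in cortex it lay at 0.71, between the tissues and below the 0.88 to 1.24 of the hippocampus libraries that were not doubted or only shallow.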

How the results depend on the processing

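The number of members called stayed at 0 in 168 of 170 alternative fits of the 8 comparisons. The exceptions were cortex at 48 h against 24 h, with 1 member in DESeq2 (0.8%, beside 0.648% of all genes) and 5 with library weights (4.35%, beside 9.03%), and the cause was not tested. Leaving out 1 library at a time gave 0 called in every comparison. The number of members itself was 118 to 137 without 1 doubted library and 157 without all 5, 119 of them among the 125, and 130 without the pseudocount. In the 4 comparisons for which the IDs were named, no log2 change turned its sign, and 2 of 79 passed the threshold, both for ENSRNOG00000016890 between 48 h and 24 h in cortex (-1.56 in DESeq2 and -1.42 with library weights). ENSRNOG00000022337, named for another comparison, also passed in that one with library weights (-1.37). Numbers at an unadjusted p under 0.05 moved by over 1.5 times in 94 of 170 fits, highest with library weights, at 48 in cortex at 24 h (41.7%, beside 18.8% of all genes), 31 in cortex at 48 h (27%, beside 12.7%), 23 in hippocampus at 24 h (18.4%, beside 10.8%) and 27 between the times in hippocampus (21.6%, beside 11.4%). Same-numbered libraries deviated together in some pairs and not in others, so the numbers were not taken as pairs, with correlations over genes from -0.29 to 0.14 across tissues (3 of 10 pairs over 0.1) and from -0.49 to 0.34 across exposure groups (8 of 16). With the replicate block 0 members were called in each of the 8 comparisons. Depth limits the shallow hippocampus control 1, where 1 read is worth 4.32 normalized counts.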
